A study of Mus musculus with 18 samples.

Results

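The proteasome subunit genes of NIH3T3 cells were followed under heat shock (HS) and under tunicamycin. The members were the genes named Psma, Psmb, Psmc, Psmd or Psme followed only by digits, which are 43 of the 20207 genes listed for each sample. NIH3T3 is an immortalised mouse embryonic fibroblast line. Poly(A) RNA of 18 samples, called cultures here, was sequenced, with 3 in each of 6 groups. For making the libraries, the study's methods name a modified Illumina protocol and also a NuGEN kit. Which of them was used for which sample is not in the labels, so its part in the results was not tested. All cultures stably expressed superfolder GFP fused to a destabilizing domain (DD), the L106P mutant derived from FKBP, and all were kept in Shield-1, the ligand that holds this domain folded. The cells were a population sorted for high GFP, not 1 clone. Reference cultures stayed at 37 °C without drug, HS cultures were moved to 42 °C for 45 or 135 min, and tunicamycin cultures received the drug for 45, 135 or 405 min, at a dose whose unit is given differently in the study's own documents. Tunicamycin blocks N-linked glycosylation and so disturbs protein folding in the endoplasmic reticulum. Nothing in the labels says whether the 3 cultures of a group were grown separately, so the p-values measure the spread between these samples.

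The proteasome degrades proteins tagged with ubiquitin. Its 20S core is a barrel with outer rings of alpha subunits, which gate the entrance, and inner rings of beta subunits, of which Psmb5, Psmb6 and Psmb7 carry the catalytic sites. The 19S regulatory particle caps the core. Its base unfolds substrates with the Psmc ATPases around the scaffold subunits Psmd1 and Psmd2 and holds the ubiquitin receptor Psmd4, and its lid carries the deubiquitinase Psmd14. Psmd5, Psmd9 and Psmd10 are chaperones that help assemble the base and are not part of the finished particle. Other activators can take the place of the 19S cap: PA28 made of Psme1 and Psme2, PA28gamma made of Psme3, and PA200 made of Psme4. Psmb8, Psmb9 and Psmb10 replace the catalytic subunits in the immunoproteasome, Psmb11 belongs to the thymus and Psma8 to the testis. The transcription factor Nfe2l1 drives many subunit genes when proteasome activity falls short.

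In the reference cultures the constitutive beta genes of the 20S core had the highest median level per length of transcript, and the alpha genes lay below the 19S base. RPKM, a read count scaled to transcript length and library size, had a median over genes of 187.4 for the 7 constitutive beta genes, 111.2 for the 9 base genes, 77.5 for the 8 alpha genes including Psma8 and 60.2 for the 8 lid genes. The 3 assembly chaperones had a median of 12.6 and the 4 activators 21.8. Psmb2 was highest at 287.3 ± 13.8 RPKM (SD, n = 3), and the cultures of Psmb3, at 271.0 ± 24.5, overlapped those of Psmb2. Among base genes Psmd4, the ubiquitin receptor, led at 174.2 ± 0.50 RPKM, while the ATPase Psmc6 had 24.8 ± 14.4. Of the activators, Psme3 had 44.5 ± 7.17 RPKM and Psme4 7.01 ± 2.41. The genes of specialised proteasomes were low: Psmb10 had 10.2 ± 0.81 RPKM, Psmb9 0.497 ± 0.145, Psmb11 0.103 ± 0.0366 and Psmb8 0.0112 ± 0.0194. Psma8 was listed at 0 in all 18 samples, where 3 reads would correspond to 0.0451 to 0.0898 CPM (counts scaled to library size).

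**Figure D1:**
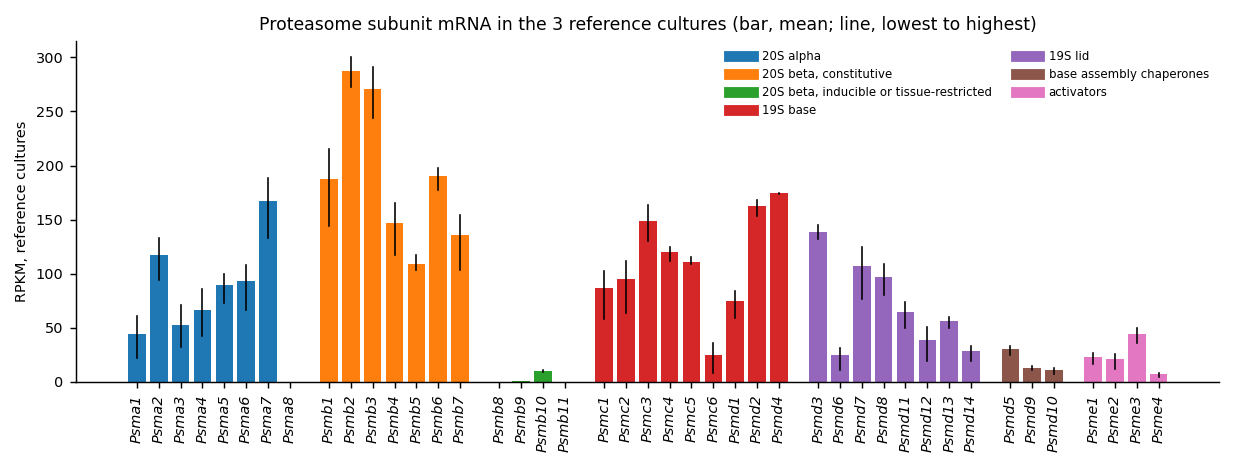
RPKM (vertical axis) of the 43 subunit genes in the 3 reference cultures, grouped by subcomplex. Bars are means and lines run from the lowest to the highest culture. The constitutive beta genes sit highest, with Psmb2 at 287.3, and the inducible or tissue-restricted beta genes are at or near 0 apart from Psmb10 at 10.2.

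Counts over all genes came to between 33415592 and 66478268 per library. Subunit genes took 0.504% to 0.651% of the reads in the reference cultures, 0.328% to 0.509% and 0.303% to 0.425% after 45 and 135 min of HS, and 0.426% to 0.508%, 0.386% to 0.46% and 0.525% to 0.537% after 45, 135 and 405 min of tunicamycin. In bulk RNA, fewer cells that express a gene and less of its RNA per cell cannot be told apart. Markers of each stress were read as a check, with log2 fold changes from edgeR's quasi-likelihood test (3 against 3) and their standard errors (SE). After 135 min of HS the chaperone gene Hspa1b was raised by 7.24 (adjusted p = 0.0058, edgeR). Hspa5, a chaperone of the endoplasmic reticulum, was raised by 3.73 after 405 min of tunicamycin (adjusted p = 4.64e-06, edgeR), but did not pass the test at 45 min (0.45, adjusted p = 0.0709, edgeR) or 135 min (-0.72, adjusted p = 0.135, edgeR). Ddit3, a stress transcription factor, rose by 2.92 at 45 min of tunicamycin (adjusted p = 0.000836, edgeR). Neither gene was particular to tunicamycin. At 135 min of HS Hspa5 had 1340, 1420 and 1270 CPM, against 656, 684 and 735 CPM in the reference. Ddit3 then had 257, 513 and 309 CPM, against 74, 69.4 and 72.2 CPM. The fibroblast label held: Col1a1 was at 649.3 RPKM or more in every sample, whereas the summed RPKM of 4 immune, 3 epithelial and 3 endothelial markers was at most 0.302 for each list. Lum, 1 of 8 fibroblast markers, was near 0. The fibroblast markers together had 8334 to 8627 RPKM in the reference and 3406 to 3839 at 405 min of tunicamycin, and the part of this shift in the results at 405 min was not tested. Of the members, 41 had at least 1 read in every sample and were tested among 12731 such genes. Psma8 and Psmb8 were not. Psmb8 lay between 0 and 0.158 CPM.

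Some reads cannot be placed with certainty. GENCODE names a pseudogene copy for 4 members (Psmb5, Psmb6, Psmb7 and Psme2), and how reads with more than 1 match were counted is not given in the sources used here, so the levels of these 4 are uncertain to that extent. On mm9, Psmd1 spans the oppositely directed gene Htr2b, Psma4 shares 96 bases with AY074887 and Psme1 shares 4 bases with Fam158a. Use of strand in counting is not stated either.

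Of the 18 libraries, 4 stood apart. For each library, the deviation of every gene that is not a member from its mean over the libraries was set against the GC content of its transcript (12379 genes). Spearman's rho was 0.59 and 0.556 in replicates 1 and 2 of 45 min of HS, 0.57 in replicate 2 of 135 min of HS and 0.541 in replicate 1 of 135 min of tunicamycin. In the other 14 libraries it lay between -0.608 and 0.155, with 0.060 in reference replicate 1 and -0.544 in reference replicates 2 and 3. The same 4 libraries held the lowest levels of many subunit genes: 13 of 41 members (31.7%) were lower in all 4 than in any of the other 14, against 10.9% of all genes tested, and 2 members (Psmc3 and Psmd3) were higher, 4.88% against 6.35%.

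Psma2, an alpha ring gene with a transcript GC content of 40.1%, had 3.07, 4.46, 3.61 and 6.36 CPM in these 4 libraries and 24.1 to 143 CPM in the others. Psmb7, which carries the trypsin-like site, had 8.84, 7.88, 5.41 and 23.6 CPM against 54.1 to 170. Psmc6, an ATPase of the base with the lowest GC content of the members (36.2%), had 2.08, 2.81, 2.77 and 5.73 CPM against 16.2 to 64.8. Psma1, Psma3, Psma4, Psma5, Psmb4, Psmd5, Psmd10, Psmd11, Psme3 and Psme4 make up the rest of the 13 and were named after their values were seen. Other subunits of the same particle did not stand apart: Psmb3 had 114 to 146 CPM in the 4 libraries, within the 103 to 248 of the others, and Psmb6 had 153 to 190, within 137 to 341. In all, 6 members had a pooled within-group SD above 1 on the log2 scale (14.6%, against 1.33% of all genes tested). Across the 41 members, log2 fold change against the reference followed transcript GC content with a Spearman's rho of 0.80 and 0.73 at 45 and 135 min of HS and 0.51, 0.60 and 0.52 at 45, 135 and 405 min of tunicamycin, over genes that share libraries. Over all 12420 tested genes with a GC value, the same rho was 0.55, 0.39, 0.06, 0.35 and 0.12. With an offset for GC content in the fit, it was 0.55, 0.50, 0.47, 0.39 and 0.29 over the members and 0.01 to 0.03 over all genes. The part of these libraries in each result was not tested apart from the values without them that are given beside it.

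**Figure D2:**
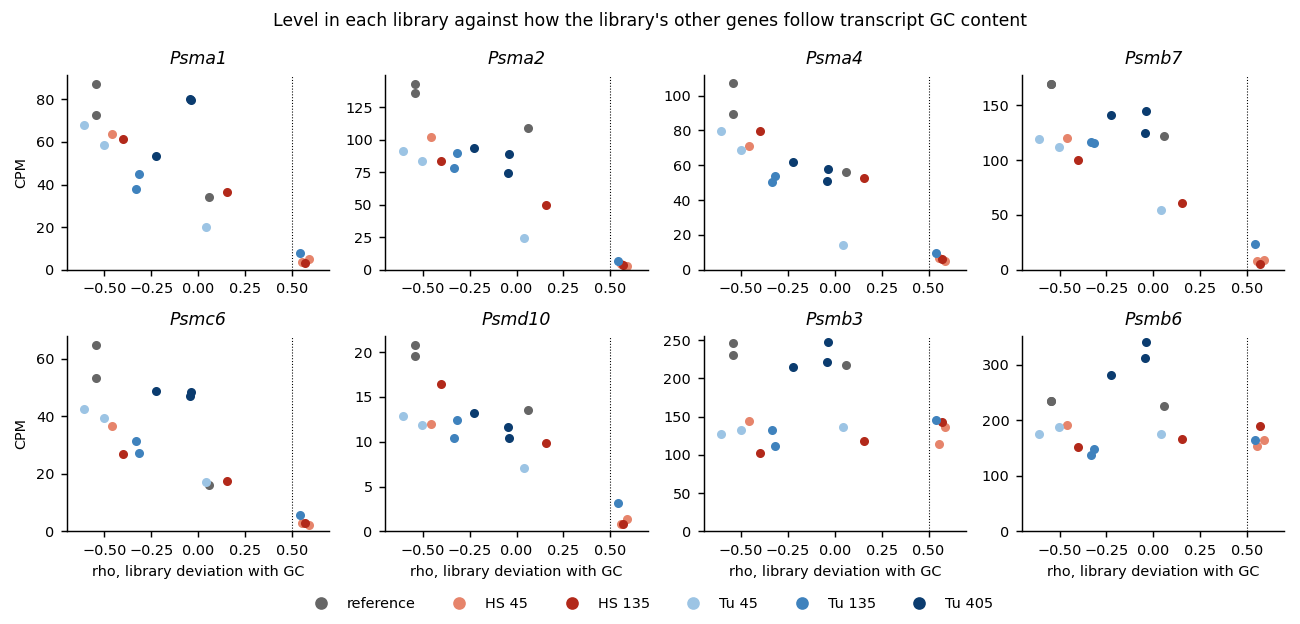
Level in CPM (vertical axis) of 8 subunit genes in the 18 libraries against Spearman's rho between each library's deviations and transcript GC content over non-member genes (horizontal axis, dotted line at 0.5). The 4 libraries right of the line, from 3 groups, have Psma2 at 6.36 CPM or less, while Psmb3 and Psmb6 stay within the range of the other libraries.

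With all 3 cultures a group, no subunit gene was called higher under HS. At 45 min, 0 of 41 members were called higher and 0 lower by edgeR's quasi-likelihood test, as for all genes tested (0% in each direction), with 13 members lower and 0 higher at an unadjusted p-value under 0.05 (31.7%, against 7.16% of all genes lower and 12.3% higher). Hspa1b, the marker of HS, was not called at this time either, with 280, 223 and 46 CPM against 6.3, 5.5 and 5.47 CPM in the reference. The lack of calls at 45 min therefore does not show that a gene was unchanged. DESeq2 called 1 member lower and edgeR's exact test 0, with the share of all genes not given here. The median log2 fold change was -0.65 over the members and -0.03 over all genes, and 34 of 41 members were below 0. The alpha genes had the lowest median (-1.42, all 7 below 0), then the assembly chaperones (-1.13), the constitutive beta genes (-0.74), the lid (-0.54), the base (-0.52) and the activators (-0.22). These differences between lists came with the HS libraries that stood apart. Without them 1 HS culture remained, and the medians in the same order were -0.31, -0.29, -0.26, -0.24, -0.25 and 0.02. All 3 HS cultures lay below all 3 reference cultures for 14 members (34.1%, against 12.8% of all genes) and above them for 1 (2.44%, against 12.5%).

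The 45 min values depended on the libraries. Psmb3, a structural beta subunit (chromosome 11 of mm9, 97564748 to 97574814), had 217, 246 and 231 CPM in the reference cultures and 137, 114 and 144 CPM after 45 min of HS. No HS culture reached the reference range, and the log2 fold change was -0.82 (SE 0.194, edgeR adjusted p = 0.227). With the 2 HS libraries that stood apart left out, 1 HS culture remained, assumed to vary like the other group, and the median over members was -0.26 with 37 of 41 below 0 and none called. With HS replicate 3 left out instead, only the 2 HS libraries that stood apart remained, and 24 members were called lower and 3 higher. The share of all genes called in that fit is not given here, so these counts cannot be set against it.

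At 135 min of HS, 1 member was called lower and 0 higher (2.64% and 4.75% of all genes). The called gene was Psmb3, with 103, 143 and 118 CPM, a log2 fold change of -0.93 (SE 0.200, edgeR adjusted p = 0.0355). Its HS cultures lay wholly below the reference cultures. The call was lost without reference replicate 2, without reference replicate 3 or without HS replicate 3, with adjusted p up to 0.185, and with the replicate number as a block (adjusted p = 0.143). All 8 lid genes were below 0 (median -0.63), as were all 7 alpha genes (-0.94), 6 of 7 constitutive beta genes (-0.72) and 7 of 9 base genes (-0.56). Without HS replicate 2, which stood apart, these medians lay close together, at -0.48, -0.43, -0.50 and -0.42. The median over all genes was -0.02.

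Psmd14, the lid deubiquitinase, had 36.3, 58.6 and 56.5 CPM in the reference cultures and 28.5, 10.9 and 20.9 CPM at 135 min of HS. The groups did not overlap, and the log2 fold change was -1.33 (SE 0.372, edgeR adjusted p = 0.0658). Psmd1, the large scaffold of the base (chromosome 1, 87961194 to 88035870), had 235, 316 and 297 CPM and then 178, 128 and 178 CPM. It was also lower in every HS culture, at -0.81 (SE 0.225, edgeR adjusted p = 0.0649). Psme4 had the lowest log2 fold change of the members, -1.69 (SE 0.506, edgeR adjusted p = 0.0764). In all, 18 of 41 members (43.9%, against 19% of all genes) had all 3 HS cultures below the reference, and none had all 3 above (18.1% of all genes).

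Counts at 135 min of HS moved widely with the method. DESeq2 and edgeR's exact test each called 7 members lower, and a fit of all 6 groups together 15. Leaving out HS replicate 1 gave 7 and leaving out HS replicate 2, the library that stood apart, gave 3: Psmb3 at -1.03 (adjusted p = 0.0204), Psmd14 at -1.0 (adjusted p = 0.0471) and Psme4 at -1.26 (adjusted p = 0.0362, all by edgeR). Without HS replicate 2, 727 of all 12731 genes were called higher and 509 lower. For the other fits of this paragraph that share is not given here. No setting tried called a member higher at 135 min of HS.

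**Figure D3:**
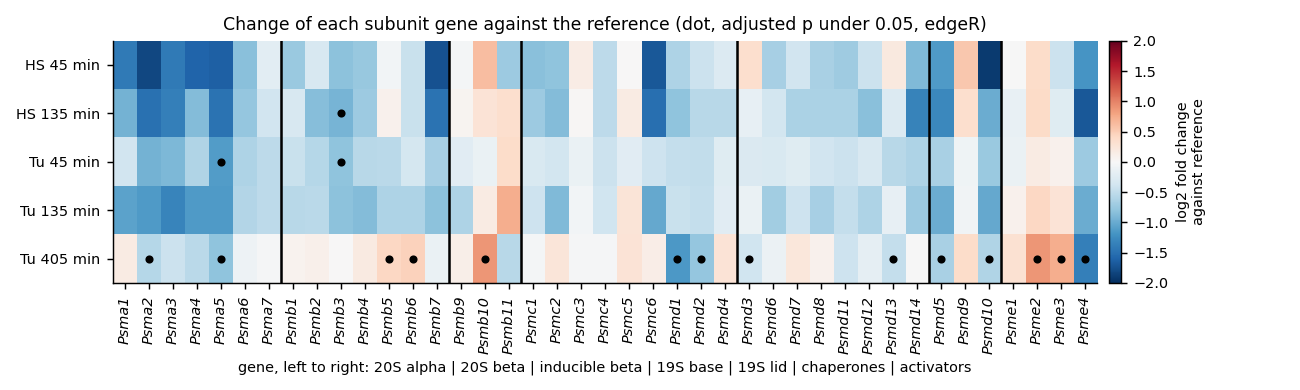
Log2 fold change against the reference (colour) of the 41 tested subunit genes (columns, grouped by subcomplex) at 2 HS times and 3 tunicamycin times (rows, in min). A dot marks an adjusted p under 0.05 from edgeR: 1 gene at 135 min of HS, 2 at 45 min of tunicamycin and 14 at 405 min.

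The early tunicamycin times also lay below the reference. Every comparison with the reference, under HS or tunicamycin, uses the same 3 reference cultures, so these comparisons are not independent of each other. At 45 min, 2 members were called lower and 0 higher (2.17% and 4.01% of all genes), and 38 of 41 had a log2 fold change below 0 (92.7%, against 50.4% of all genes), with a median of -0.43 against -0.00. The 7 constitutive beta genes had a median of -0.56, the 7 alpha genes -0.61, the 9 base genes -0.37 and the 8 lid genes -0.35, and every gene of these lists was below 0. The 4 activators had a median of -0.03. All 3 tunicamycin cultures lay below the reference for 18 members (43.9%, against 16% of all genes), among them all 7 constitutive beta genes, and above it for none (17.2%).

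Psmb3 had 127, 133 and 136 CPM at 45 min of tunicamycin, against 217, 246 and 231 in the reference. These ranges are far apart relative to their width, and Psmb3 fell by 0.80 on the log2 scale (SE 0.114, edgeR adjusted p = 0.0119). Psma5, an alpha ring subunit (chromosome 3, 108059844 to 108082870), had 71.6, 62.5 and 38.7 CPM against 108, 140 and 132, and fell by 1.11 (SE 0.241, edgeR adjusted p = 0.0408). Psmb5, which carries the chymotrypsin-like site, had 65.2, 77.3 and 85 CPM against 113, 105 and 116, a log2 fold change of -0.54 (SE 0.132, edgeR adjusted p = 0.0548). Its 45 min cultures did not reach the reference range, though the gene did not pass the test.

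These calls at 45 min depended on single libraries, and the share of all genes called in the fits that follow is not given here. The count was 18 lower without reference replicate 1 and 0 without reference replicate 2, reference replicate 3, tunicamycin replicate 1 or tunicamycin replicate 2, and 1 without tunicamycin replicate 3, which leaves Psmb3. It was also 0 with the replicate number as a block, where Psmb3 had an adjusted p of 0.109 and Psma5 of 0.149, 10 with DESeq2 and 8 with edgeR's exact test.

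After 135 min of tunicamycin no member was called higher or lower (0.126% and 0.00785% of all genes). At an unadjusted p-value under 0.05, 16 members were lower and 0 higher (39% lower, against 8.49% of all genes, which were 10.1% higher), and DESeq2 and edgeR's exact test each called 7 lower. The median was -0.58, against -0.00 over all genes, with 35 of 41 below 0. All 3 tunicamycin cultures lay below the reference for 21 members (51.2%, against 13.6% of all genes), again including all 7 constitutive beta genes, and above it for none (13.7%). Psmb6, which carries the caspase-like site, had 164, 137 and 148 CPM against 225, 235 and 234 in the reference, a log2 fold change of -0.61 (SE 0.153, edgeR adjusted p = 0.125). Without the library that stood apart, tunicamycin replicate 1, the median over members was -0.48 with 36 below 0 and none called. Psme3, the PA28gamma gene, had 103, 184 and 200 CPM against 116, 149 and 143, so its groups overlapped.

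Between 45 and 135 min of tunicamycin no member was called in either direction (0.118% of all genes higher and 0.173% lower), with 0 higher and 3 lower at an unadjusted p-value under 0.05 (8.1% and 7.69% of all genes). DESeq2 and edgeR's exact test called none. The median was -0.08.

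At 405 min of tunicamycin the subunit genes no longer moved one way. Of 41 members, 5 were called higher and 9 lower, and these shares (12.2% and 22.0%) compare with 23.3% and 23.5% of all genes. The median was -0.02, against -0.01 over all genes. All 3 cultures lay above the reference for 9 members and below it for 9 (22% each, against 29.2% and 29.5% of all genes). The 5 higher genes were the catalytic core genes Psmb5 and Psmb6, the immunoproteasome gene Psmb10 and the activator genes Psme2 and Psme3. The 9 lower genes were Psma2 and Psma5 of the alpha ring, Psmd1 and Psmd2 of the base, Psmd3 and Psmd13 of the lid, the assembly chaperones Psmd5 and Psmd10, and Psme4. The other 27 members lay between -0.56 and 0.36, with adjusted p of 0.0644 or more.

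Psmb6 (chromosome 11, 70338859 to 70341360) had 225, 235 and 234 CPM in the reference cultures and 282, 312 and 341 CPM at 405 min, a log2 fold change of 0.46 (SE 0.123, edgeR adjusted p = 0.0164). Psmb5 (chromosome 14, 55232957 to 55236832) had 113, 105 and 116 CPM and then 135, 147 and 156 CPM, a log2 fold change of 0.41 (SE 0.119, edgeR adjusted p = 0.0209). For both catalytic genes every 405 min culture lay above every reference culture. Each call held in only 2 of the 6 fits that left out 1 library, those without reference replicate 1 and without tunicamycin replicate 1, with adjusted p up to 0.088 for Psmb6 and 0.104 for Psmb5. Psmb7, the third catalytic gene, had 141, 125 and 145 CPM against 122, 170 and 170, and its groups overlapped (log2 fold change -0.14, SE 0.155, edgeR adjusted p = 0.472).

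Psmb10, the inducible counterpart of Psmb7 (chromosome 8, 108459628 to 108462292), had 17.1, 13.8 and 14.8 CPM in the reference cultures and 21.1, 30.1 and 31.5 CPM at 405 min. It rose by 0.88 on the log2 scale (SE 0.186, edgeR adjusted p = 0.00569), and the groups did not overlap. The other immunoproteasome subunits did not go with it: Psmb9 had 0.653, 0.375 and 0.389 CPM and then 0.457, 0.6 and 0.432 CPM, and Psmb8 had at most 0.0502 CPM in the reference and 0.0353 CPM at 405 min, under the level of 3 reads.

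The activator genes split. Psme3 (chromosome 11, 101177565 to 101184844) had 116, 149 and 143 CPM in the reference and 222, 219 and 221 CPM at 405 min, and rose by 0.72 (SE 0.129, edgeR adjusted p = 0.0026). Psme2, a PA28 subunit, had 13.4, 25.1 and 26.6 CPM and then 31.6, 44.1 and 43.3 CPM, a rise of 0.89 (SE 0.260, edgeR adjusted p = 0.0223). Its call was lost without tunicamycin replicate 2 or without tunicamycin replicate 3, with adjusted p up to 0.0792. Its partner Psme1 had 19.7, 29.9 and 27.9 CPM and then 28.4, 35.7 and 30.7 CPM, which overlap, with a log2 fold change of 0.31 (SE 0.178, edgeR adjusted p = 0.182).

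Psme4, the PA200 gene (chromosome 11, 30671775 to 30780361), had 33.2, 63.3 and 60.9 CPM in the reference and 22.5, 19.2 and 18.1 CPM at 405 min. It fell by 1.37 (SE 0.238, edgeR adjusted p = 0.00226), the lowest log2 fold change of the members at this time, and every 405 min culture was below every reference culture.

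The scaffold genes of the base fell, whereas its ATPase genes did not pass the test. Psmd1 had 141, 116 and 119 CPM at 405 min against 235, 316 and 297 in the reference, and fell by 1.15 on the log2 scale (SE 0.151, edgeR adjusted p = 0.000592). Psmd2 (chromosome 16, 20651725 to 20663485) had 365, 315 and 295 CPM against 553, 575 and 562, and fell by 0.77 (SE 0.127, edgeR adjusted p = 0.00175). In neither gene did the groups overlap, and both calls held in all 6 fits that left out 1 library. Psmc5 had the highest log2 fold change of the base at 405 min, 0.27 (SE 0.112, edgeR adjusted p = 0.0747). The ubiquitin receptor gene Psmd4 had 295, 315 and 299 CPM against 265, 252 and 249, also 0.27 (edgeR adjusted p = 0.0812), with every 405 min culture above the reference.

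In the alpha ring, Psma5 had 73.8, 61.3 and 79.3 CPM at 405 min against 108, 140 and 132 in the reference, a fall of 0.80 (SE 0.150, edgeR adjusted p = 0.00324). Psma2 fell by 0.57 (edgeR adjusted p = 0.0133) and Psma1, with 53.6, 80.3 and 79.6 CPM against 34.1, 72.8 and 87.4, had the highest value of the ring, 0.16 (edgeR adjusted p = 0.702). In the lid, Psmd13 fell by 0.48 (edgeR adjusted p = 0.0185) and Psmd3 by 0.40 (edgeR adjusted p = 0.0215), whereas Psmd14 had 50, 47.7 and 50.1 CPM, a log2 fold change of -0.01 (SE 0.182, edgeR adjusted p = 0.964). Of the assembly chaperones, Psmd5 fell by 0.65 (edgeR adjusted p = 0.0087) and Psmd10 by 0.60 (edgeR adjusted p = 0.0311), and Psmd9 was at 0.36 (edgeR adjusted p = 0.0644). Leaving out 1 library ended the call of Psma2 (tunicamycin replicate 2), Psmd13 (tunicamycin replicate 3), Psmd3 (tunicamycin replicates 2 or 3 or reference replicate 2) and Psmd10 (the same libraries or reference replicate 3), with edgeR adjusted p of up to 0.0669, 0.0797, 0.11 and 0.12.

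Reference replicate 1 weighed on the count at 405 min: 18 members were called lower and 7 higher without it. The share of all genes called without that library is not given here. A fit of all 6 groups together called 2 lower (Psmd1 and Psmd2) and 2 higher, and 10 of the 14 calls were lost there, those of Psmb5, Psmb10, Psme3 and Psme4 among them.

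**Figure D4:**
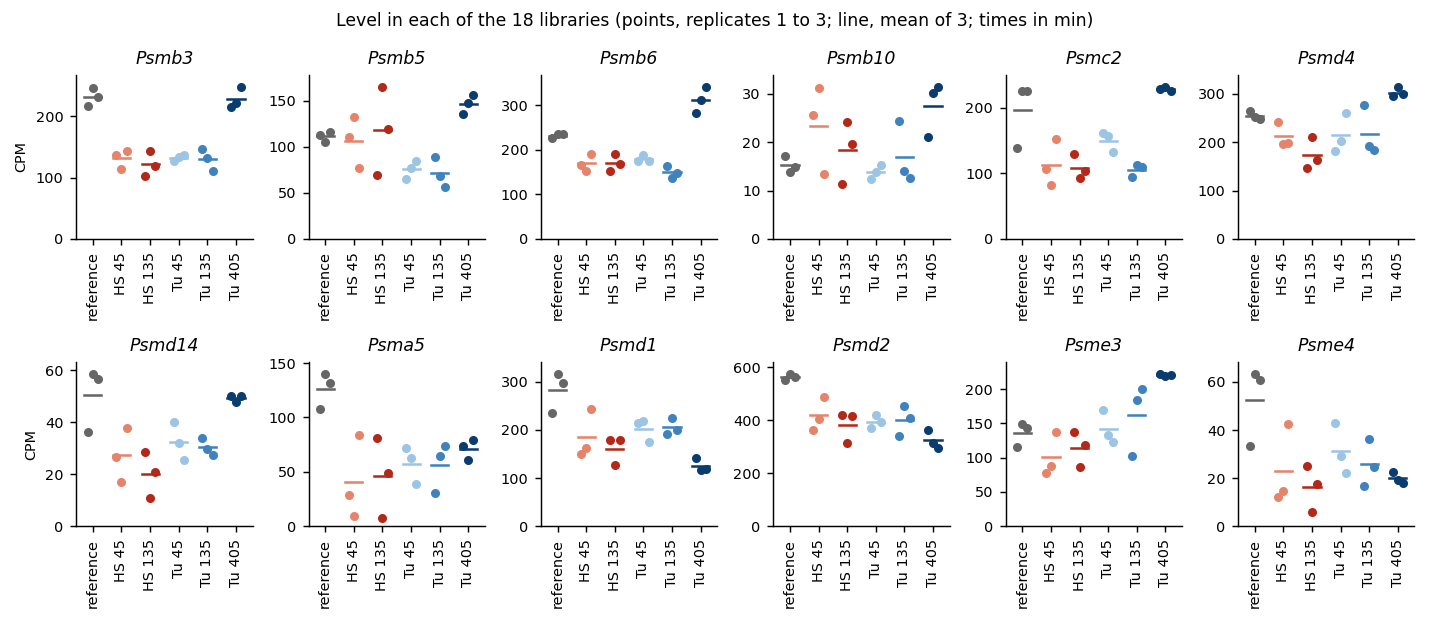
Level in CPM (vertical axes, from 0) of 12 subunit genes in each of the 18 libraries, by group (horizontal axes, times in min). Points are replicates 1 to 3 from left to right and lines are means. Psmb3 lies at 103 to 146 CPM at all early stress times and at 215 to 248 CPM at 405 min of tunicamycin, while Psmd1 is lowest at 405 min.

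The 405 min cultures were also compared with the earlier tunicamycin times, which share their 405 min samples. Against 135 min, 14 members were called higher and 1 lower (34.1% and 2.44%, against 21.4% and 22.4% of all genes), with a median of 0.46. At an unadjusted p-value under 0.05, 19 were higher and 2 lower (25.8% and 26.5% of all genes). Against 45 min, 18 were called higher and 4 lower (43.9% and 9.76%, against 24.4% and 28.1% of all genes), with a median of 0.41. The medians over all genes were -0.01 and -0.06. With total counts in place of TMM scaling, which moves the median of all genes to -0.21 for 405 against 45 min, the split was 12 higher and 5 lower.

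The constitutive beta genes were higher as a list. All 7 had every 405 min culture above every 135 min culture, and likewise above every 45 min culture (29.8% and 31% of all genes had such an order upward, and 26.9% and 29.4% downward), and 6 of the 7 were called higher in each comparison. Their medians were 0.80 against 135 min and 0.69 against 45 min. Psmb3 had 146, 132 and 111 CPM at 135 min and 215, 222 and 248 CPM at 405 min, and rose by 0.80 (SE 0.146, edgeR adjusted p = 0.00394). At 405 min it was back within the reference range of 217 to 246 CPM apart from 1 culture on either side (log2 fold change 0.00 against the reference, SE 0.120, edgeR adjusted p = 0.985). Psmb6 rose by 1.04 from 135 min (adjusted p = 0.001), Psmb4 by 1.02 (adjusted p = 0.00221) and Psmb5 by 1.01 (adjusted p = 0.00371, all by edgeR). Psmb7 was the one not called, at 0.66 (SE 0.505, edgeR adjusted p = 0.321), with 23.6, 117 and 116 CPM at 135 min.

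Among the base genes, Psmc2, an ATPase (chromosome 5, 21291101 to 21309602), had 93.9, 112 and 109 CPM at 135 min and 229, 232 and 226 CPM at 405 min. It rose by 1.10 (SE 0.125, edgeR adjusted p = 0.000485), and its 405 min cultures lay near reference replicates 2 and 3, at 225 and 226 CPM. Psmd1 went the other way, from 192, 224 and 200 CPM, and fell by 0.73 (SE 0.135, edgeR adjusted p = 0.00399). In the lid, 5 of 8 genes were called higher against 135 min and none lower. Psmd14 had 34, 29.7 and 27.5 CPM at 135 min, and rose by 0.67 (SE 0.134, edgeR adjusted p = 0.00543), and Psmd7 rose by 0.60 (edgeR adjusted p = 0.0118), or with an adjusted p of 0.0641 without 405 min replicate 2.

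Of the 7 alpha genes, 2 were called higher against 135 min and 1, Psma7, against 45 min, where it had 111, 123 and 120 CPM and then 159, 168 and 174 CPM (log2 fold change 0.46, SE 0.0927, edgeR adjusted p = 0.0034). Among activators, none was called at 405 against 135 min, where Psme3 was at 0.42 (edgeR adjusted p = 0.185) and Psme4 at -0.39 (edgeR adjusted p = 0.267). Against 45 min, Psme1, Psme2 and Psme3 rose by 0.40, 0.67 and 0.59 (adjusted p = 0.0362, 0.00462 and 0.0065, edgeR), and Psme4 fell by 0.71 (edgeR adjusted p = 0.0296) although its cultures overlapped. Psmb10 rose by 0.95 (edgeR adjusted p = 0.00167), while Psmb11, the thymus subunit, fell by 0.98 (edgeR adjusted p = 0.0415) between levels of 0.555 ± 0.176 and 0.295 ± 0.121 CPM (SD, n = 3). Leaving out 1 library ended the calls of Psme4 (5 of 6 fits, all but that without 45 min replicate 3), Psmb11 (replicates 1 or 2 of either time) and Psme1 (45 min replicate 2, 405 min replicates 2 or 3), with edgeR adjusted p up to 0.0985, 0.143 and 0.15.

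Without replicate 1 of 135 min, the library that stood apart, 22 members were called higher and 4 lower at 405 against 135 min, and of all 12731 genes 4094 were then higher and 4032 lower, against 2720 and 2846 with all libraries. The constitutive beta genes had a median of 0.87 in that fit. The count was 9 higher without 405 min replicate 2 and 7 without 405 min replicate 3. Against 45 min, no library with rho above 0.5 entered the fit, but replicate 3 of 45 min differed from replicates 1 and 2. Its rho was 0.042, against -0.608 and -0.502. Its median log2 ratio to the reference mean was -0.53 over the members, against -0.35 and -0.33. Over the alpha genes that median was -1.68, against -0.50 and -0.48. Leaving out 1 library gave 13 to 22 higher. The 4 lower calls there fell to 1 without 45 min replicate 1, 45 min replicate 2 or 405 min replicate 2, and to 2 without 405 min replicate 1 or 405 min replicate 3.

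**Figure D5:**
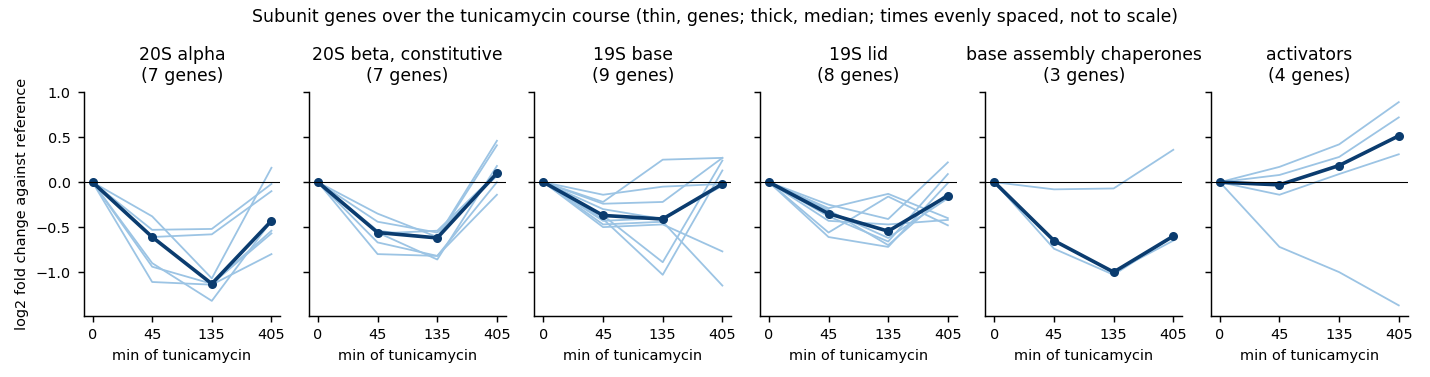
Log2 fold change against the reference (vertical axis) at 45, 135 and 405 min of tunicamycin (horizontal axis, evenly spaced, not to scale) for 6 subcomplex lists. Thin lines are genes and thick lines medians. The constitutive beta median goes from -0.56 and -0.62 at the early times to 0.10 at 405 min, and the lowest lines at 405 min are Psme4 and Psmd1.

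Promoter sequence was set beside these values, since all 7 constitutive beta genes lay higher at 405 min than at the earlier tunicamycin times and Nfe2l1 binds antioxidant response elements. Windows from 250 bases before to 50 bases after the RefSeq transcription start on GRCm38.p6, a build other than the mm9 of the count files, were given for 36 of the 43 members (39 windows). The core TGACNNNGC, searched on both strands, was in 6 of the 39 windows (15.4%, against 12.4% of 32851 windows of all genes). The CCAAT box (CCAAT, both strands) was in 14 windows (35.9%, against 37.4%), CCACG, a part of the endoplasmic reticulum stress element, in 16 (41%, against 32.8%), the heat shock element pair GAANNTTC in 2 (5.13%, against 7.86%) and the amino acid response core TGATGNAA in 1 (2.56%, against 3.97%). Matches of these motifs may overlap. The genes with TGACNNNGC were Psmb5, Psmb6, Psmc6, Psmd9, Psmd12 and Psme4, and among the 4 constitutive beta genes with a window, Psmb5 and Psmb6 had it and Psmb3 and Psmb4 did not.

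The 100 bases before the start are shown for Psmb5 and Psmb6, called higher at 405 min against the reference and both earlier tunicamycin times, for Psmb3, called lower at 45 min and level with the reference at 405 min, and for Psmd1, called lower at 405 min in all 3 comparisons. They run 5′ to 3′ in the direction of the gene, from RefSeq on GRCm38.p6. Capitals mark TGACNNNGC in Psmb5 and Psmb6 and CCAAT in Psmb3. Psmb5 lies at chr14:54617996-54618095 (minus strand), Psmb6 at chr11:70525257-70525356 (plus strand), Psmb3 at chr11:97703334-97703433 (plus strand) and Psmd1 at chr1:86064519-86064618 (plus strand).
Psmb5: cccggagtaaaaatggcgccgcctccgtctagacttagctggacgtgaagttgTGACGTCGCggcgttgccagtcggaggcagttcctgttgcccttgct
Psmb6: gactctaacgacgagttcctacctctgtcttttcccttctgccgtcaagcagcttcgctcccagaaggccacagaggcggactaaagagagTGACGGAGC
Psmb3: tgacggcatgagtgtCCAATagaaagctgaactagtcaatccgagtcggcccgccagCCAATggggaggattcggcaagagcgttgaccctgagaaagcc
Psmd1: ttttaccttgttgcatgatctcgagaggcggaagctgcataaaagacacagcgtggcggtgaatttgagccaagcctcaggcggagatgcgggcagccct

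The match begins 47 bases before the start in Psmb5 and 9 bases before it in Psmb6, which were called higher at 405 min against the reference. It begins 7 bases before the start in Psme4, which was called lower at that time, and in Psmd9, which was not called, it begins 31 bases before. The stretch shown for Psmd1 holds neither motif. No binding was measured in these samples, and a match of letters is not a site.

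Of 24 other tested genes of the proteasome pathway, 6 were called higher and 2 lower at 405 min of tunicamycin against the reference. The 6 higher are a share near that of all genes (25%, against 23.3%), and the 2 lower are 8.33% against 23.5%. At 405 against 135 min 10 were higher and 1 lower (41.7% and 4.17%, against 21.4% and 22.4%), and against 45 min 10 and 2 (41.7% and 8.33%, against 24.4% and 28.1%). At 135 min of HS 2 were higher and 0 lower (8.33% and 0%, against 4.75% and 2.64% of all genes). At 45 min of tunicamycin 1 was higher and 0 lower, near the share of all genes for those higher (4.17% and 0%, against 4.01% and 2.17%). None was called after 45 min of HS (0% of all genes in each direction) or after 135 min of tunicamycin (0.126% higher and 0.00785% lower). Nfe2l1, the transcription factor of subunit genes, had 229, 205 and 204 CPM in the reference, 386, 577 and 394 CPM at 135 min of HS, 335, 392 and 474 CPM at 45 min of tunicamycin and 512, 496 and 427 CPM at 405 min. It was above the reference range at each of these times and rose by 1.09 (adjusted p = 0.0321), 0.92 (adjusted p = 0.0166) and 1.19 (adjusted p = 0.000255, all by edgeR). At 135 min of tunicamycin it had 347, 258 and 251 CPM, also above the reference range, with a log2 fold change of 0.44 (SE 0.179, edgeR adjusted p = 0.248). At 45 min of HS Nfe2l1 had 365, 353 and 257 CPM, likewise above the reference range, and was not called. The HS call was lost without any of the reference replicates or HS replicate 3 (edgeR adjusted p up to 0.165), and the 45 min call without reference replicates 2 or 3 or tunicamycin replicate 2 (up to 0.101). The 405 min call held in all 6 fits that left out 1 library.

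Psmg2, a chaperone of alpha ring assembly, had 15.6, 20.9 and 19.4 CPM in the reference and 40.7, 66.4 and 73.8 CPM at 405 min of tunicamycin, and rose by 1.72 (SE 0.234, edgeR adjusted p = 0.000723). At 135 min of HS it had 15, 3.12 and 9.34 CPM, all below the reference (log2 fold change -1.02, adjusted p = 0.208, edgeR). Ubqln1, which shuttles ubiquitinated proteins to the proteasome, had 72, 135 and 120 CPM in the reference and 204, 294 and 259 CPM at 135 min of HS, and rose by 1.21 (SE 0.281, edgeR adjusted p = 0.0419). That call was lost without any of the reference replicates or HS replicate 3 (edgeR adjusted p up to 0.173). Ipo9, a nuclear import receptor with a role in proteasome import, had 285, 284 and 278 CPM in the reference and 138, 110 and 109 CPM at 405 min of tunicamycin, and fell by 1.23 (SE 0.133, edgeR adjusted p = 0.000244).

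HS and tunicamycin were compared directly at 135 min. No member was called in either direction (1.3% of all genes higher under HS and 0.817% lower), and none had an unadjusted p-value under 0.05 (10.2% and 9.75% of all genes). DESeq2 and edgeR's exact test called none. The members lay between -0.70 and 0.70 with a median of -0.12. Psmb5 was at the top with 68.8, 165 and 119 CPM under HS and 89.1, 68.6 and 56.6 CPM under tunicamycin, which overlap (SE 0.339, edgeR adjusted p = 0.311), and Psme4 at the bottom (SE 0.531, edgeR adjusted p = 0.518). Both groups hold 1 library that stood apart, and without these 2 the median was -0.04 and none were called. In that fit 865 of all 12731 genes were called higher under HS and 668 lower.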

How the data were processed

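mRNA-seq of 18 samples was read from 1 file per sample. The authors aligned reads to mm9 and deposited an estimated count of reads for every RefSeq gene, without normalization and rounded to 4 significant digits, in which 17.7% to 23.2% of the low values were not whole. The aligner, the counter and their settings are not given in the sources used here. The authors also gave an RPKM value, which scales the count by gene length and library total. Next to it the authors deposited a score (RPKM centred on the library mean and divided by its SD) and a signal (RPKM divided by its root mean square), neither used here. The gene name joined the files.

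Each count was rounded to a whole number, and the 12731 genes with at least 1 read in all 18 samples were tested in pairwise fits of 3 against 3 with edgeR 4.0.16 (R 4.3.3), TMM scaling, the quasi-likelihood test and Benjamini-Hochberg adjustment. Genes with an adjusted p under 0.05 are called. The standard error was computed from the log2 fold change and F. CPM values by sample are scaled by TMM over all 18 libraries, and so can differ slightly from the pairwise fits. Total counts ran from 33415592 to 66478268 per sample, so that errors of well expressed genes reflect mainly the spread between samples. In that spread, differences between cultures and between library preparations cannot be told apart. The fits were tested on counts simulated independently for each gene, without the relation to GC content of the libraries that stood apart. That test cannot show how the fits handle such libraries, and its outcome is not given here. No 2 samples of a group were alike enough to be 1 library.

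Members and lists were chosen with earlier results of these data known. Named were the called members of each comparison and direction (up to 8, by p), the highest and lowest of each list at 405 min of tunicamycin, a fixed set (Psmb3, Psmb5, Psmb8, Psmb9, Psmb10, Psmd4, Psmd14 and Psme1 to Psme4), the 3 called pathway genes that moved most in each comparison with the reference, and 4 stress genes. Genes outside this rule were named after their values were seen. For GC content, the longest transcript of each gene in GENCODE on mm9 was taken (19480 of 20207 genes, 96.4%). Alternatives were DESeq2 1.42.0 (Wald test, and its size factors), total counts, edgeR's exact test, no filter, a block on replicate number, a joint fit of the 6 groups, an offset for GC content (lowess, span 0.3), and leaving out each library in turn. Leaving out the 4 libraries with rho above 0.5 was added after seeing the data. Replicate numbers come from the labels. Only for 135 min of tunicamycin against the reference did every same-numbered pair deviate together (correlations 0.342, 0.322 and 0.299), where the block left the count at 0. Other steps used Python 3.11.15, numpy 2.4.6, pandas 2.3.3 and scipy 1.17.1.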

Additional observations from a re-analysis of the deposited data

Results flagged for a closer look

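The tunicamycin times were compared directly by edgeR's quasi-likelihood test, and some subunit genes differed between them. At 405 against 135 min, 14 members were called higher and 1 lower (21.4% and 22.4% of all genes), and at 405 against 45 min, 18 were called higher and 4 lower (24.4% and 28.1% of all genes). The control cultures do not enter these comparisons. With 3 samples a group, no sample was tested for lying far from the others.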

How the results depend on the processing

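None of the 59 called results of named genes reversed under any alternative. Of these, 34 stayed called in every fit that left out 1 library, 52 with the replicate number as a block and 35 in 1 fit of all 6 groups. The counts of members called moved more, and the share of all genes called in each alternative is not given beside them. For 135 min of HS against the reference (1 lower), DESeq2 gave 7, the exact test 7, total counts 3, the fit of all groups 15, the GC offset 11, the replicate block 0, leaving out the 4 libraries that stood apart 3, and leaving out 1 library 0 to 7. For 45 min of HS (0 lower), DESeq2 gave 1, the fit of all groups 5, and leaving out 1 library 0 to 24 lower and 0 to 3 higher. For 45 min of tunicamycin (2 lower), DESeq2 gave 10, the exact test 8, total counts 1, the replicate block 0, the GC offset 12, and leaving out 1 library 0 to 18. For 135 min (0 lower), DESeq2 and the exact test gave 7 each, the fit of all groups 3 and the GC offset 4. For 405 min (5 higher, 9 lower), the fit of all groups gave 2 and 2, and leaving out 1 library 2 to 7 higher and 6 to 18 lower. For 405 against 135 min (14 higher, 1 lower), leaving out the 4 libraries gave 22 and 4, the fit of all groups 2 lower, and leaving out 1 library 7 to 22 higher and 1 to 4 lower. For 405 against 45 min (18 higher, 4 lower), the fit of all groups gave 9 and 1, DESeq2 2 lower, the GC offset with the replicate block 2 lower, and leaving out 1 library 13 to 22 higher and 1 to 5 lower. The cause was not tested. Total counts put the median of all genes at -0.19 at both HS times, where that of the members was -0.78 and -0.79, so the members lay below all genes by about as much as with TMM scaling. The numbers did not pair the samples outside 135 min of tunicamycin against the reference, and beyond the 2 counts of 0 given above the replicate block alone moved no count by more than 1.5 times. Depth limits Psmb8, Psmb9 and Psmb11, at under 1 CPM.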

Other observations

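Further genes of the proteasome pathway, chosen after their values were seen, also passed the test at 405 min of tunicamycin against the reference. Psmg3, a second kind of alpha ring assembly chaperone, had 21, 20.4 and 23 CPM in the reference and 36.6, 56.3 and 47.3 CPM at 405 min, and rose by 1.14 (adjusted p = 0.00116, edgeR). Psmf1, which binds and inhibits the 20S core, had 35.6, 42.6 and 41.5 CPM and then 68.9, 75.5 and 76.9 CPM, a rise of 0.91 (adjusted p = 0.000745, edgeR). Shfm1, which encodes a small lid subunit outside the naming pattern of the members, rose by 0.55 (adjusted p = 0.0224, edgeR). AI314180, which encodes a protein that binds proteasomes, had 129, 166 and 167 CPM and then 80, 62.9 and 63.1 CPM, and fell by 1.14 (adjusted p = 0.000675, edgeR). For Psmg3, Psmf1 and AI314180 the call held in all 6 fits that left out 1 library, and for Shfm1 it was lost without tunicamycin replicate 2, tunicamycin replicate 3 or reference replicate 2 (edgeR adjusted p up to 0.0991). Adrm1, a ubiquitin receptor of the base, had 405 and 553 CPM in the HS libraries at 45 min that stood apart and 184 CPM in the third, against 176 to 206 CPM in the reference.

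Akirin2, which takes part in nuclear import of proteasomes together with Ipo9, had 19.5, 13.8 and 10.3 CPM at 135 min of tunicamycin and 37.2, 59.5 and 50.3 CPM at 405 min, and rose by 1.73 between these times (adjusted p = 0.00202, edgeR), while Ipo9 fell by 0.87 (adjusted p = 0.00734, edgeR).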
